A study of Homo sapiens with 6 samples.

Results

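AP-1 is a dimeric transcription factor built from FOS-family and JUN-family proteins, together with relatives such as ATF, BATF and MAF proteins. These proteins share a basic region that contacts DNA and a leucine zipper through which they pair. FOS proteins need a JUN partner, while JUN proteins can also pair with each other. Several of the genes are immediate early genes, transcribed within minutes of growth factor, stress or adhesion signals through kinases of the ERK, JNK and p38 pathways. Ewing sarcoma is driven in most tumours by EWSR1::FLI1, a fusion of the EWSR1 transactivation part with the DNA-binding ETS domain of FLI1, and ETS factors and AP-1 are known to share composite sites at many enhancers.

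The 10 AP-1 genes described here were FOS, FOSB, FOSL1, FOSL2, JUN, JUNB, JUND, ATF3, BATF3 and MAFF, taken by symbol from the 26364 gene symbols of the RNAseq table. They were measured in A673/TR/shEF, a derivative of the Ewing sarcoma cell line A673 that carries a doxycycline-inducible shRNA against EWSR1::FLI1 in every sample, controls included. All cells were grown with blasticidine and zeocin. The 3 EWSR1::FLI1high samples were untreated, and the 3 EWSR1::FLI1low samples received 1 µg/mL doxycycline for 72 h. No doxycycline-treated cells without the shRNA were among the samples, so effects of doxycycline and of the knockdown cannot be told apart. The results come from 1 cell line. The series description speaks of independent clones and the sample titles of numbered experiments, so the p-values measure only the spread between these samples, which may be technical.

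Expression is given as FPKM, in which fragments are divided by transcript length and sequencing depth, so that levels can be set side by side between genes. The 15504 genes whose FPKM averaged 0.5 or more over the 6 libraries were compared between EWSR1::FLI1low and EWSR1::FLI1high by limma on log2(FPKM + 1). P-values were adjusted over all of them (Benjamini-Hochberg), and a gene was called at an adjusted p under 0.01. Fold changes are differences of log2(FPKM + 1), a scale that shrinks differences between low values. FOSB was the one AP-1 gene under the filter, which left 9 of 10 tested.

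FLI1, which supplies the 3′ part of the targeted mRNA, was measured at 11.3, 12.7 and 14.2 FPKM in the EWSR1::FLI1high libraries and at 2.91, 4.29 and 3.68 FPKM in the EWSR1::FLI1low libraries. It fell by 1.57 on the log2 scale (SE 0.18, limma adjusted p = 0.000676), and no EWSR1::FLI1low library overlapped an EWSR1::FLI1high library. All 9 Ewing sarcoma marker genes examined were detected in every library. Each was lower in every EWSR1::FLI1low library than in any EWSR1::FLI1high library. NR0B1, for example, had 22.2 to 33.8 FPKM in EWSR1::FLI1high and 1.84 to 6.84 FPKM in EWSR1::FLI1low libraries. These markers include FLI1 itself and CCND1, which is also in the AP-1 target list below. Reads on genes numbered 6980361 to 16658933 per library. The EWSR1::FLI1low libraries varied more among themselves than the EWSR1::FLI1high libraries did: the chi-square of read counts over genes, divided by its degrees of freedom, was 20.2 to 31.5 for pairs of the former and 4.25 to 6.27 for pairs of the latter. EWSR1::FLI1low replicate 1 had the fewest reads and the lowest weight (0.172, against 0.463 to 2.79 in the others) when limma estimated sample quality weights, an alternative added after seeing the data. Summed over 13 markers of other cell types, FPKM was 1.93 to 3.25 in the EWSR1::FLI1high libraries and 3.62 to 5.59 in the EWSR1::FLI1low libraries, highest in EWSR1::FLI1low replicate 1. Between 0 and 4 of these markers were at 0 per library, and their part in the results was not tested. FPKM summed over all genes was 255956 in EWSR1::FLI1low replicate 1, against 334614 to 366060 in the other libraries. Median-ratio scaling would divide that library by 0.870, and the others by 0.989 to 1.085. Overlaps between groups and ranks of libraries below use FPKM as given, so they also depend on this scale. Because EWSR1::FLI1low replicate 1 stood apart, results are given with and without it.

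No AP-1 gene passed the threshold upon EWSR1::FLI1 knockdown: of the 9 tested, limma called 0 higher and 0 lower, beside 4.51% of all genes called higher, 3.37% called lower and 7.88% called in either direction. At an unadjusted p under 0.05, 5 of the 9 passed (FOS, FOSL2, JUN, ATF3 and BATF3), beside 34.3% of all genes. The fold change was positive for 7 of the 9, beside 45.2% of all genes tested. The median log2 fold change of the 9 was 0.73, beside a median of -0.05 over all genes tested. At an adjusted p under 0.05, FOSL2 alone was called higher, beside 9.87% of all genes. JUN also passed 0.05 with median-ratio scaling (limma adjusted p = 0.0493) and with quantile normalization (limma adjusted p = 0.0259). All genes were not counted at 0.05 in those fits. At 0.01, 994 and 992 of all genes were called higher in them, against 700 in the main fit. Without EWSR1::FLI1low replicate 1, 2 genes were called higher at 0.01 (FOSL2 and JUN), beside 9.37% of all genes, and 4 at 0.05 (FOSL2, JUN, ATF3 and MAFF), beside 16.7% of all genes. On reads recovered from the FPKM values, limma-voom called 1 AP-1 gene higher (FOSL2), beside 6.10% of all genes. With sample quality weights, 6 were called higher (FOSL1, FOSL2, JUN, JUNB, ATF3 and MAFF), beside 16.0% of all genes. Both of these alternatives were added after seeing the data, and no AP-1 gene was called lower in any of the alternatives run. No AP-1 gene was called higher by limma without EWSR1::FLI1high replicate 1, 2 or 3, beside 2.41%, 1.85% and 2.08% of all genes, or without EWSR1::FLI1low replicate 2 or 3, beside 3.57% and 2.70%. In bulk RNA, fewer cells with a transcript and less of it per cell cannot be told apart.

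**Figure D1:**
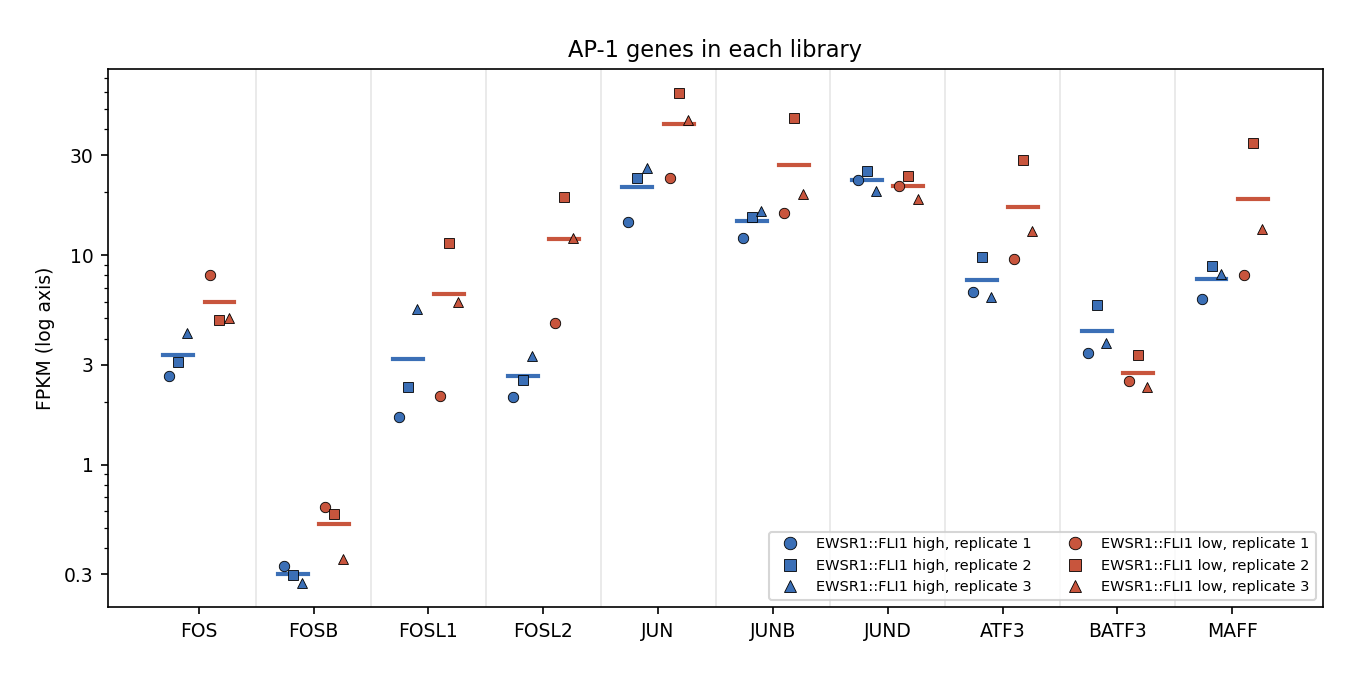
FPKM (log axis) of the 10 AP-1 genes in each of the 6 libraries, with EWSR1::FLI1high in blue, EWSR1::FLI1low in red, a marker shape per replicate number and a bar at each group's mean (n = 3). Only FOS, FOSB and FOSL2 have all 3 EWSR1::FLI1low libraries above all 3 EWSR1::FLI1high libraries, BATF3 has them below, and EWSR1::FLI1low replicate 2 is the highest red point for most genes.

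Promoter sequence was read from RefSeq windows on GRCh38.p14 that span 250 bases before to 50 bases after a start site. Of the 10 genes, 8 had a window (10 windows in all, with 2 each for ATF3 and MAFF), and FOSL1 and BATF3 had none. The windows were searched on both strands for TGACTCA, the classical AP-1 element, TGACGTCA, the cAMP response element that JUN/ATF dimers also bind, the CArG box bound by SRF, GGAAGGAA, a pair of the GGAA core that EWSR1::FLI1 binds in repeats, and TATAAA. The sequences of FOSL2 and JUND are shown because these 2 genes had the largest and the smallest fold change, in absolute size, among those tested. In the 250 bases upstream of the start, capitals mark a match to one of the elements, and FOSL2 has none there.
FOSL2, chr2:28392608-28392857, plus strand: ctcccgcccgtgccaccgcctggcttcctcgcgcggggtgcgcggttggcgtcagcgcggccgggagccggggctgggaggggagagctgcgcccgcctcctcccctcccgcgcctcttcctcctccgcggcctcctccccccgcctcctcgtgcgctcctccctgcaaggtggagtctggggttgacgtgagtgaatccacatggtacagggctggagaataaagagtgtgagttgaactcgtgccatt
JUND, chr19:18281623-18281872, minus strand: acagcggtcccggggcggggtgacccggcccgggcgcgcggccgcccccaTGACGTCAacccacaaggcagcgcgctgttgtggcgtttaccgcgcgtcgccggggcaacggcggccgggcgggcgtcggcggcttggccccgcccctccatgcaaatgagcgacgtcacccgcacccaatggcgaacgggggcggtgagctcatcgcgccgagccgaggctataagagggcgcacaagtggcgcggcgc

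FOSL2 held 1 TGACTCA, whose first base was at position 5 counted from 1 at the start site, an element found in 4.95% of all 35116 windows. JUND and the first MAFF window each held 1 TGACGTCA, at -200 and -54, an element found in 1.85% of all windows. Negative positions lie upstream of the start. These matches are shown in capitals with flanking bases.
FOSL2: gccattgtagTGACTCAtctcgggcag
JUND: gccgcccccaTGACGTCAacccacaag
MAFF: gccgggtcggTGACGTCAccgcatgac

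TATAAA, found in 11.5% of all windows, lay at -33 in FOS, -30 in FOSB and -31 in JUNB, and at -230 in the second ATF3 window. The 3 genes with the element close to the start are shown for its position.
FOS: aaacgcttgtTATAAAagcagtggctg
FOSB: gtcccgggcaTATAAAtacaggctggc
JUNB: actagcgcggTATAAAggcgtgtggct

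JUN held none of the 5 elements, and no AP-1 window held a CArG box (1.29% of all windows) or GGAAGGAA (3.67%). A missing match says only that these letters are not in the window. The share of G and C in the 250 upstream bases was 69.6% in FOSL2 and 74.8% in JUND, and 62.0% or more in every AP-1 window except those of ATF3 (49.2% and 44.8%), beside a median of 58.0% over all windows.

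The FOS family spanned a wide range of levels. FOS, the founding member and an unstable nuclear protein with a strong activation domain (ENSG00000170345, chr14:75745529-75748933 on GRCh37, plus strand), was measured at 2.65, 3.08 and 4.25 FPKM in the EWSR1::FLI1high libraries and at 8.08, 4.92 and 5.03 FPKM in the EWSR1::FLI1low libraries. The groups did not overlap, and the highest FOS value was that of EWSR1::FLI1low replicate 1. Mean FPKM was 3.33 ± 0.827 (SD, n = 3) against 6.01 ± 1.79 (SD, n = 3). FOS thus had a log2 fold change of 0.68 (SE 0.22, 95% interval 0.18 to 1.19, limma adjusted p = 0.0630), and it was 0.48 (limma adjusted p = 0.10) without EWSR1::FLI1low replicate 1. FOS rests on 53 to 169 reads per library.

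FOSB, a close relative of FOS (ENSG00000125740, chr19:45971253-45978437), was the lowest of the 10 genes in every library. It was measured at 0.328, 0.299 and 0.274 FPKM in the EWSR1::FLI1high libraries and at 0.625, 0.581 and 0.357 FPKM in the EWSR1::FLI1low libraries, from 8 to 21 reads per library. The groups did not overlap, and a value of 3 reads would correspond to 0.0510 to 0.103 FPKM. The mean over the 6 libraries was 0.411 FPKM, under the filter, so the gene was not tested, and with no filter its log2 fold change was 0.22 (limma adjusted p = 0.316). ERCC1, a DNA repair gene, lies on the opposite strand and overlaps FOSB, with 15.0 to 30.2 FPKM over the 6 libraries. Whether the counting used strand is not given in the sources used here, so reads shared by the overlap cannot be told apart.

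FOSL1, which encodes FRA-1 and lacks the strong activation domain of FOS (ENSG00000175592, chr11:65659520-65668044, minus strand), was measured at 1.68, 2.36 and 5.52 FPKM in the EWSR1::FLI1high libraries and at 2.12, 11.4 and 5.97 FPKM in the EWSR1::FLI1low libraries. The groups overlapped, since EWSR1::FLI1low replicate 1 lay below 2 of the 3 EWSR1::FLI1high libraries, while the other EWSR1::FLI1low libraries lay above all of them. The estimated log2 fold change was 0.73 (SE 0.49, 95% interval -0.37 to 1.84, limma adjusted p = 0.329), and it was 1.26 (adjusted p = 0.0517, limma) without EWSR1::FLI1low replicate 1. It was 0.26 (limma adjusted p = 0.733) without EWSR1::FLI1low replicate 2 and 0.46 (limma adjusted p = 0.621) without EWSR1::FLI1high replicate 1. FOSL1 had the widest interval of the 9 genes over all 6 libraries, and it holds both a decrease and an increase.

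FOSL2, which encodes FRA-2 and is known for its role in bone and matrix-producing cells (ENSG00000075426, chr2:28615315-28640184, plus strand), had the largest fold change of the 9 genes. It was measured at 2.10, 2.55 and 3.30 FPKM in the EWSR1::FLI1high libraries and at 4.73, 18.9 and 12.1 FPKM in the EWSR1::FLI1low libraries. The groups did not overlap, and EWSR1::FLI1low replicate 1 stood well below the other EWSR1::FLI1low libraries, at 0.306 of their mean. Mean FPKM was 2.65 ± 0.606 (SD, n = 3) against 11.9 ± 7.08 (SD, n = 3), a ratio of 4.50. The log2 fold change was 1.66 (SE 0.39, 95% interval 0.77 to 2.55), with an unadjusted p of 0.00230 and an adjusted p of 0.0198 by limma. Without EWSR1::FLI1low replicate 1 it was 2.16 (limma adjusted p = 0.000649), and over all alternatives run the adjusted p ranged from 4.86e-05 to 0.0745. Leaving out any of the EWSR1::FLI1high libraries, or EWSR1::FLI1low replicate 3, put it above 0.05. FOSL2 rests on 81 to 753 reads per library. The antisense RNA FOSL2-AS1 overlaps it on the opposite strand, and the long noncoding RNA gene ENSG00000270640 overlaps it on the same strand. Their share in the FOSL2 reads was not tested.

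**Figure D2:**
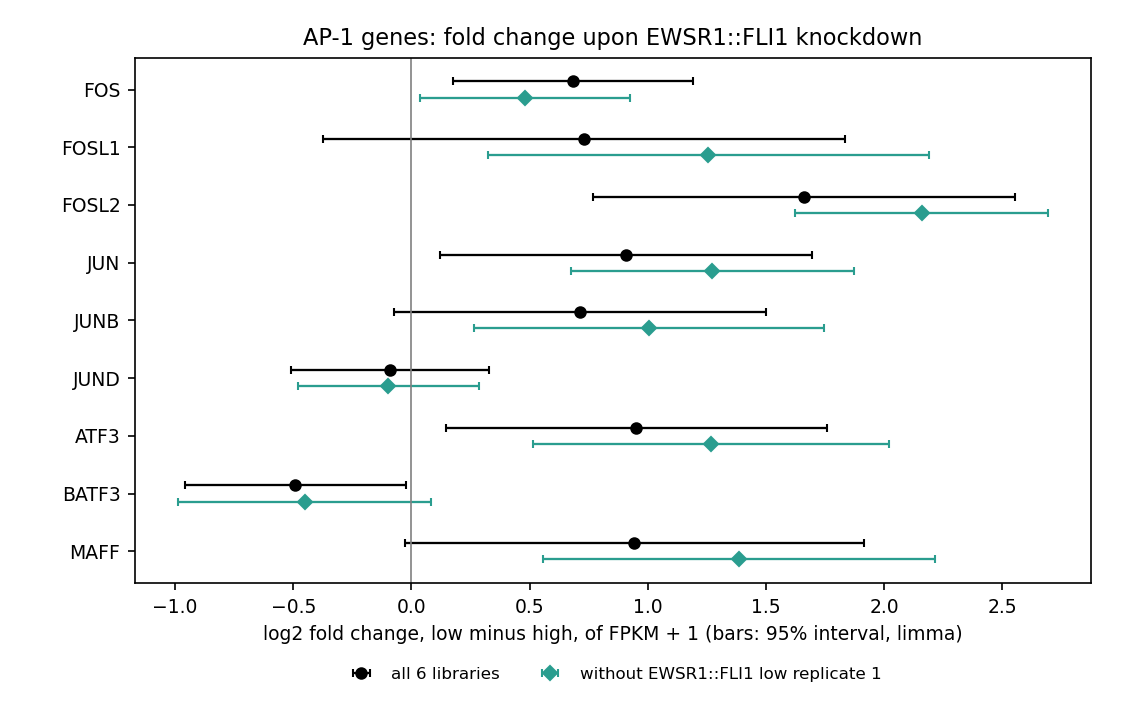
Log2 fold change of FPKM + 1, EWSR1::FLI1low minus EWSR1::FLI1high, for the 9 AP-1 genes tested, with 95% intervals from limma, over all 6 libraries (black circles) and without EWSR1::FLI1low replicate 1 (green diamonds). FOSL2 lies farthest to the right, at 1.66 and 2.16, while the JUND intervals span 0 in both fits.

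The JUN family held 55.6% to 68.1% of the FPKM summed over the 10 genes in each library. JUN, the partner of most FOS dimers and the substrate of the JNK kinases (ENSG00000177606, chr1:59242517-59249720, minus strand), was measured at 14.3, 23.2 and 25.9 FPKM in the EWSR1::FLI1high libraries and at 23.4, 59.1 and 44.1 FPKM in the EWSR1::FLI1low libraries. The groups overlapped through EWSR1::FLI1low replicate 1, which lay within the EWSR1::FLI1high range, while the other EWSR1::FLI1low libraries lay above it. For JUN the log2 fold change was 0.91 (SE 0.35, 95% interval 0.12 to 1.69, limma adjusted p = 0.0997). Without EWSR1::FLI1low replicate 1 it was 1.27 (limma adjusted p = 0.00989), which passed the threshold, and over all alternatives run the adjusted p ranged from 0.00127 to 0.297.

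JUNB, a JUN relative with weaker activation that can restrain JUN (ENSG00000171223, chr19:12902300-12904129, plus strand), was measured at 12.1, 15.2 and 16.2 FPKM in the EWSR1::FLI1high libraries and at 15.9, 45.1 and 19.7 FPKM in the EWSR1::FLI1low libraries. The high EWSR1::FLI1low mean came from replicate 2, and replicate 1 lay within the EWSR1::FLI1high range. The log2 fold change was 0.71 (SE 0.35, 95% interval -0.07 to 1.499, limma adjusted p = 0.183), and it was 1.00 (limma adjusted p = 0.0506) without EWSR1::FLI1low replicate 1 and 0.28 (limma adjusted p = 0.479) without EWSR1::FLI1low replicate 2. HOOK2, on the opposite strand, overlaps JUNB and was also highest in EWSR1::FLI1low replicate 2, at 6.45 FPKM against 3.94 to 4.70 FPKM in the other libraries. Its share in the JUNB reads was not tested.

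JUND, the JUN protein that is made at steady levels in many resting cells (ENSG00000130522, chr19:18390504-18392432, minus strand), was measured at 22.8, 25.1 and 20.3 FPKM in the EWSR1::FLI1high libraries and at 21.4, 23.98 and 18.6 FPKM in the EWSR1::FLI1low libraries. The groups overlapped, and the spread among the 6 libraries was the narrowest, relative to the level, of the 10 genes. JUND had a log2 fold change of -0.09 (SE 0.18, 95% interval -0.51 to 0.33, limma adjusted p = 0.775). It was -0.10 (limma adjusted p = 0.693) without EWSR1::FLI1low replicate 1. Its sign depended on the fit, with 0.06 after quantile normalization and 0.00 without EWSR1::FLI1low replicate 3.

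Of the remaining genes, ATF3, a stress-induced factor that pairs with JUN proteins (ENSG00000162772, chr1:212738676-212794119, plus strand), was measured at 6.66, 9.81 and 6.29 FPKM in the EWSR1::FLI1high libraries and at 9.54, 28.6 and 13.01 FPKM in the EWSR1::FLI1low libraries. EWSR1::FLI1low replicate 1 lay just under the highest EWSR1::FLI1high library, so the groups overlapped by that one value. The log2 fold change was 0.95 (SE 0.36, 95% interval 0.14 to 1.76, limma adjusted p = 0.0942). Without EWSR1::FLI1low replicate 1 it was 1.27 (adjusted p = 0.0241, limma), past 0.05 but not past 0.01, and without EWSR1::FLI1low replicate 2 it was 0.52 (limma adjusted p = 0.199).

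BATF3, which lacks a transactivation domain, pairs with JUN proteins and is best known from dendritic cell development (ENSG00000123685, chr1:212859759-212873182, minus strand), went the other way. It was measured at 3.40, 5.76 and 3.82 FPKM in the EWSR1::FLI1high libraries and at 2.52, 3.36 and 2.35 FPKM in the EWSR1::FLI1low libraries, from 22 to 45 reads per library. The groups did not overlap, but EWSR1::FLI1high replicate 1 and EWSR1::FLI1low replicate 2 differed by only a small fraction of their level. Mean FPKM was 4.32 ± 1.26 (SD, n = 3) against 2.74 ± 0.536 (SD, n = 3). The log2 fold change was -0.49 (SE 0.21, 95% interval -0.96 to -0.02, limma adjusted p = 0.129), and its sign was the same in all 15 alternative fits. It was -0.45 (limma adjusted p = 0.183) without EWSR1::FLI1low replicate 1 and -0.31 (limma adjusted p = 0.390) without EWSR1::FLI1high replicate 2. BATF3 lies 65639 bases from the end of ATF3 on chromosome 1, and the 2 neighbours had fold changes of opposite sign.

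MAFF, a small MAF protein that has no transactivation domain and pairs with CNC proteins such as NRF2 (ENSG00000185022, chr22:38596774-38612514, plus strand), was measured at 6.18, 8.88 and 8.11 FPKM in the EWSR1::FLI1high libraries and at 8.001, 34.5 and 13.4 FPKM in the EWSR1::FLI1low libraries. EWSR1::FLI1low replicate 1 lay within the EWSR1::FLI1high range, and replicate 2 was far above all others. The log2 fold change was 0.94 (SE 0.43, 95% interval -0.03 to 1.92, limma adjusted p = 0.158), and it was 1.39 (limma adjusted p = 0.0244) without EWSR1::FLI1low replicate 1 and 0.40 (limma adjusted p = 0.357) without EWSR1::FLI1low replicate 2. PLA2G6, which overlaps MAFF on the opposite strand, was lowest in EWSR1::FLI1low replicate 2, at 0.485 FPKM against 1.02 to 1.58 FPKM in the other libraries.

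Groups that did not overlap were counted over the 9 genes tested, on FPKM as given, with no rescaling of EWSR1::FLI1low replicate 1. The EWSR1::FLI1low libraries lay above the EWSR1::FLI1high libraries in 2 of 9 genes (FOS and FOSL2), beside 17.5% of all genes, and below them in 1 of 9 (BATF3), beside 23.6% of all genes. An exact two-sided permutation test of mean FPKM gave p = 0.1, the smallest that 3 libraries against 3 allow, for FOS, FOSB, FOSL2 and BATF3. It gave exact p = 0.2 for JUN, JUNB and ATF3, exact p = 0.3 for FOSL1 and MAFF, and exact p = 0.5 for JUND. This design cannot reach a p under 0.05 with that test.

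The 3 EWSR1::FLI1low libraries were also compared with each other over the 9 genes tested, again on FPKM as given. EWSR1::FLI1low replicate 2 was the highest of its group in 8 of the 9 genes tested, beside 26.2% of all genes, with FOS as the exception. EWSR1::FLI1low replicate 1 was the lowest in 6 of 9, beside 57.0% of all genes. It exceeded every EWSR1::FLI1high library in 2 of 9 genes (31.1% of all genes). Replicates 2 and 3 each did so in 7 of 9 genes, beside 34.6% and 39.0% of all genes. The level in replicate 1, divided by the mean of replicates 2 and 3, had a median of 0.459 over the 9 genes, beside 0.810 over all genes tested and 0.794 over genes called higher. Among the members it ran from 0.244 in FOSL1 to 1.63 in FOS. FOS was relatively high in the library in which FOSL1, FOSL2, JUN, JUNB, ATF3 and MAFF were relatively low.

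The makeup of the AP-1 mRNA pool was described by sums of FPKM. Summed FPKM over the 10 genes was 72.2, 96.3 and 94.0 in the EWSR1::FLI1high libraries and 96.3, 230.2 and 134.6 in the EWSR1::FLI1low libraries. In FPKM as given, EWSR1::FLI1low replicate 1 was thus level with the upper EWSR1::FLI1high libraries. That library had the lowest FPKM summed over all genes, and the sums over AP-1 genes were not rescaled for it. The FOS family summed to 6.76, 8.29 and 13.3 FPKM in the EWSR1::FLI1high libraries and to 15.6, 35.8 and 23.5 FPKM in the EWSR1::FLI1low libraries. The JUN family summed to 49.2, 63.5 and 62.4 FPKM and to 60.7, 128.1 and 82.4 FPKM, in the same order. JUN-family mRNA was more abundant than FOS-family mRNA in every library.

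Within the FOS family, FOSL2 held 31.1%, 30.7% and 24.7% of the summed FPKM in the EWSR1::FLI1high libraries and 30.4%, 52.8% and 51.6% in the EWSR1::FLI1low libraries. FOS held 39.2%, 37.2% and 31.8%, and then 51.9%, 13.7% and 21.4%. FOS was thus the leading FOS-family transcript in EWSR1::FLI1low replicate 1, and FOSL2 in the other EWSR1::FLI1low libraries. Within the JUN family, JUND held 46.3%, 39.5% and 32.5% in the EWSR1::FLI1high libraries and 35.3%, 18.7% and 22.5% in the EWSR1::FLI1low libraries, while JUN held 29.2%, 36.6% and 41.5%, and then 38.6%, 46.1% and 53.6%. These shares are a description and were not tested.

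**Figure D3:**
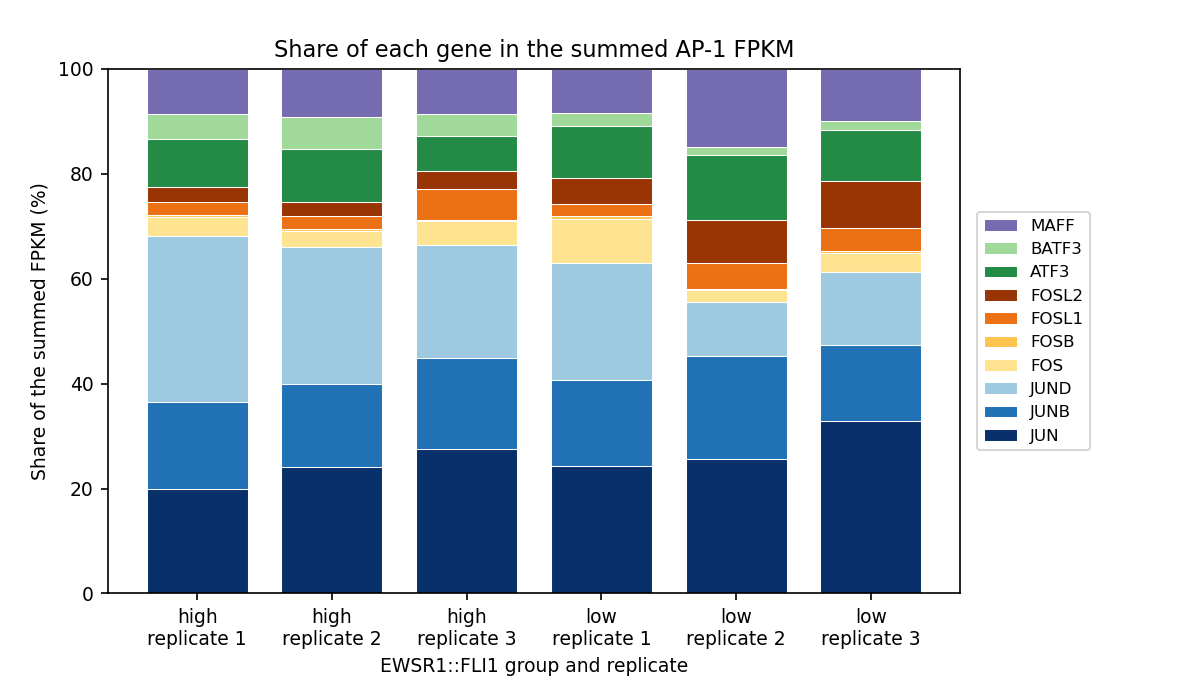
Share (%) of each AP-1 gene in the FPKM summed over the 10 genes, 1 stacked bar per library, with JUN-family genes in blue, FOS-family genes in yellow to brown, and ATF3, BATF3 and MAFF in green and purple. JUND takes 21.6% to 31.5% in the EWSR1::FLI1high libraries, 22.3% in EWSR1::FLI1low replicate 1, and 10.4% and 13.8% in EWSR1::FLI1low replicates 2 and 3.

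Ordered by mean FPKM, the EWSR1::FLI1high libraries had JUND, JUN and JUNB at the top, followed by MAFF and ATF3, then BATF3, FOS, FOSL1 and FOSL2, and FOSB at the bottom. The libraries of neighbouring genes overlapped within each of these 4 sets and did not overlap between JUNB and MAFF, between ATF3 and BATF3, or between FOSL2 and FOSB. In the EWSR1::FLI1low libraries the order was JUN, JUNB, JUND, MAFF, ATF3, FOSL2, FOSL1, FOS, BATF3 and FOSB, and the libraries of neighbours overlapped down to FOS. FOSL2 stood in place 9 of 10 among EWSR1::FLI1high means and in place 6 among EWSR1::FLI1low means.

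Genes around AP-1 were examined in 4 lists, described by counts without a test of the list. Of 28 other bZIP factors related to AP-1, 23 were tested, 2 rose (BACH2 and CEBPD) and 0 fell by limma, beside 4.51% of all genes called higher and 3.37% called lower. At an unadjusted p under 0.05, 7 passed, beside 34.3% of all genes. Their median log2 fold change was 0.07, and 6 were called higher without EWSR1::FLI1low replicate 1, beside 9.37% of all genes. BACH2, a repressor that pairs with small MAF proteins such as MAFF, was measured at 0.267, 0.352 and 0.348 FPKM in the EWSR1::FLI1high libraries and at 2.96, 2.01 and 2.03 FPKM in the EWSR1::FLI1low libraries (log2 fold change 1.32, SE 0.17, limma adjusted p = 0.00123). CEBPD, a bZIP factor of inflammation and differentiation, was measured at 4.42, 4.91 and 5.99 FPKM and at 27.1, 34.1 and 25.2 FPKM (log2 fold change 2.29, SE 0.19, limma adjusted p = 0.000184). Both had all EWSR1::FLI1low libraries far above all EWSR1::FLI1high libraries, and BACH2 was highest in EWSR1::FLI1low replicate 1. Without that library the log2 fold changes were 1.19 for BACH2 and 2.32 for CEBPD.

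Of 23 upstream genes, 22 were tested. The list holds ERK, JNK and p38 kinases, MAPK7, some activators of these kinases, RPS6KA1, RPS6KA2, RPS6KA3 and MAPK8IP1. It also holds the JUN ubiquitin ligase FBXW7, SRF and its ELK partners. MAP3K1, an activator of the JNK pathway, rose (6.56, 6.41 and 8.11 FPKM against 15.4, 11.98 and 16.6 FPKM, log2 fold change 0.96, SE 0.19, limma adjusted p = 0.00923), and 0 fell, which makes 1 of 22 genes called higher beside 4.51% of all genes. Its adjusted p lay above 0.01 in 6 of 15 alternative fits, up to 0.0581, among them those without each of the EWSR1::FLI1high libraries and without EWSR1::FLI1low replicates 1 or 3. Across the list the median log2 fold change was 0.03, and 2 of 22 passed an unadjusted p under 0.05, beside 34.3% of all genes.

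Of 24 other immediate early genes, 23 were tested, 2 rose and 0 fell, beside 4.51% of all genes called higher and 3.37% called lower. At an unadjusted p under 0.05, 13 of the 23 passed, beside 34.3% of all genes. The median log2 fold change was 0.71, close to the 0.73 of the AP-1 genes. The 2 that rose were CYR61 and CTGF, which encode secreted matricellular proteins. CYR61 was measured at 2.08, 2.63 and 3.72 FPKM and at 27.7, 46.3 and 34.1 FPKM (log2 fold change 3.27, SE 0.24, limma adjusted p = 9.5e-05), and CTGF at 0.976, 1.71 and 3.53 FPKM and at 45.2, 106.1 and 48.2 FPKM (log2 fold change 4.43, SE 0.38, limma adjusted p = 0.000207). Both were past 0.01 in every alternative fit, with log2 fold changes of 3.44 and 4.65 without EWSR1::FLI1low replicate 1. In that fit 6 genes of the list were called higher, beside 9.37% of all genes. EGR1, named here after its values were seen as the best known immediate early gene, was measured at 6.14, 8.68 and 6.59 FPKM in the EWSR1::FLI1high libraries and at 5.02, 6.14 and 2.35 FPKM in the EWSR1::FLI1low libraries. It was not called, and the groups overlapped by a narrow margin.

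Of 34 textbook AP-1 target genes, 32 were tested, 11 rose (34.4%, beside the 4.51% of all genes) and 1 fell (beside 3.37%). Among those that rose were MMP10, MMP13, PLAU, LIF, CCL2, VIM, CD44, FN1, SPP1 and PTGS2. The count was 23 without EWSR1::FLI1low replicate 1 (9.37% of all genes), 9 without EWSR1::FLI1low replicate 2 (3.57%) and 4 without EWSR1::FLI1low replicate 3 (2.70%). It was 6, 3 and 3 without EWSR1::FLI1high replicate 1, 2 and 3 (2.41%, 1.85% and 2.08%). With no filter on low values it was 4, beside 1.86% of the 24488 genes then tested, and no AP-1 gene was called. The median log2 fold change was 1.25, and 21 of 32 passed an unadjusted p under 0.05, beside 34.3% of all genes. The list was chosen with earlier results of these data known and is no independent evidence of direction.

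Within the target list, the largest increases past the threshold were those of SPP1, LIF and MMP10. SPP1, which encodes the matrix protein osteopontin, was measured at 0.210, 0.484 and 0.783 FPKM and at 8.06, 114.0 and 103.0 FPKM (log2 fold change 5.02, SE 0.82, limma adjusted p = 0.00394). LIF, a cytokine of the interleukin-6 family, was measured at 0.336, 0.411 and 0.293 FPKM and at 4.48, 72.1 and 16.3 FPKM (log2 fold change 3.82, SE 0.74, limma adjusted p = 0.00844). MMP10, a matrix protease, was measured at 3.58, 8.13 and 4.33 FPKM and at 29.1, 201.3 and 67.3 FPKM (log2 fold change 3.62, SE 0.59, limma adjusted p = 0.00386). The calls of SPP1, LIF and MMP10 were lost, with adjusted p up to 0.0375, when any EWSR1::FLI1high library or EWSR1::FLI1low replicate 3 was left out, and also with no filter on low values. That of LIF was also lost with quantile normalization (limma adjusted p = 0.0131). The log2 fold changes of SPP1, LIF and MMP10 were 6.21, 4.72 and 4.28 without EWSR1::FLI1low replicate 1, all past 0.01.

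CD44, a hyaluronan receptor, was measured at 4.58, 6.09 and 8.51 FPKM and at 28.6, 117.3 and 96.6 FPKM (log2 fold change 3.28, SE 0.47, limma adjusted p = 0.00207), with an adjusted p of 0.0144 without EWSR1::FLI1high replicate 2 and 0.0133 without EWSR1::FLI1low replicate 3. Its log2 fold change was 3.90 without EWSR1::FLI1low replicate 1. MMP1, the collagenase whose promoter was among the first AP-1 sites described, was not called, with 344.7, 572.2 and 497.3 FPKM against 300.4, 1436 and 1161 FPKM (log2 fold change 0.78, SE 0.51, limma adjusted p = 0.319). Without EWSR1::FLI1low replicate 1 its log2 fold change was 1.48 (limma adjusted p = 0.00237), and it was 0.36 and 0.51 without EWSR1::FLI1low replicates 2 and 3. CCND1, which encodes cyclin D1, was the target that fell, from 394.1, 375.4 and 386.5 FPKM to 70.8, 141.1 and 115.7 FPKM. It fell by 1.87 on the log2 scale (SE 0.24, limma adjusted p = 0.00123), and its adjusted p was 0.0112 without EWSR1::FLI1high replicate 2. The log2 fold change of CCND1 was -1.58 without EWSR1::FLI1low replicate 1.

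**Figure D4:**
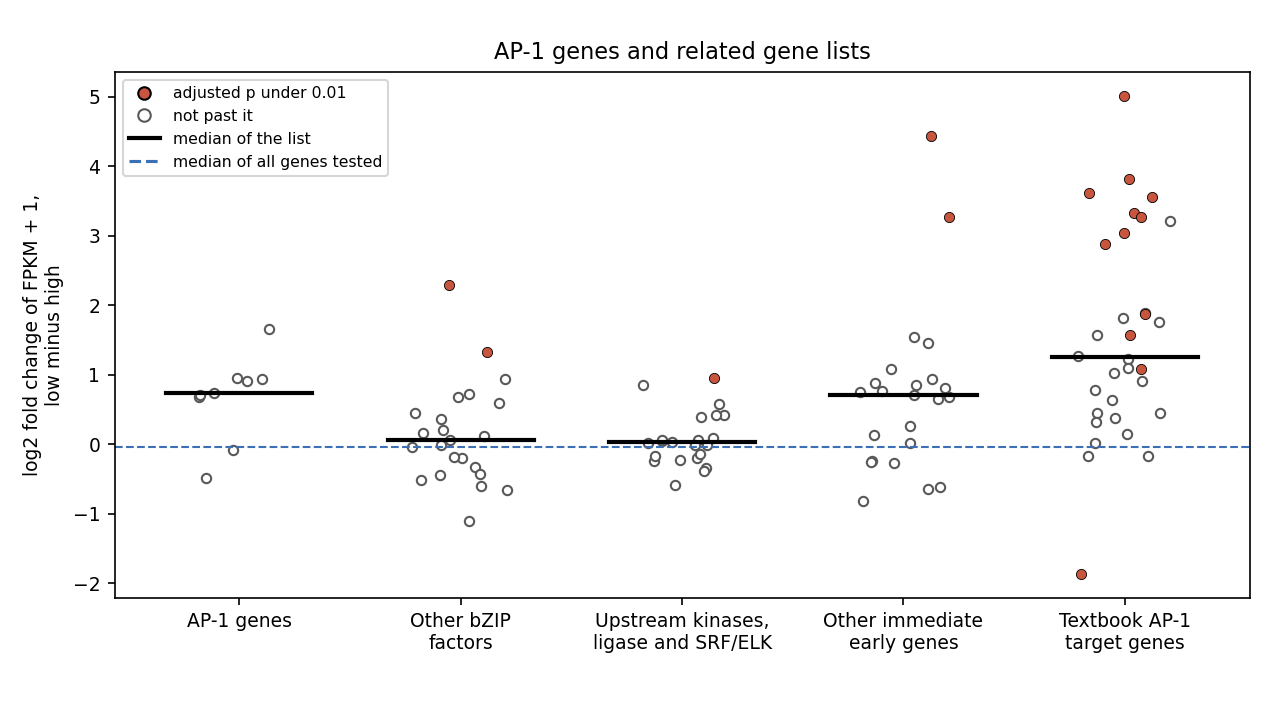
Log2 fold change of FPKM + 1, EWSR1::FLI1low minus EWSR1::FLI1high, for each gene tested in the AP-1 group and in 4 related lists, with filled points past an adjusted p of 0.01, black bars at list medians and a dashed line at the median of all genes tested. The medians are 0.73 for AP-1 genes, 0.07 for other bZIP factors, 0.03 for upstream genes, 0.71 for other immediate early genes and 1.25 for textbook targets.

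The order of the EWSR1::FLI1low libraries seen in AP-1 genes, with replicate 2 above replicate 3 and replicate 3 above replicate 1, was counted in each list. It held for 6 of 9 AP-1 genes (66.7%), 11 of 23 other bZIP factors (47.8%), 9 of 22 upstream genes (40.9%), 13 of 23 other immediate early genes (56.5%) and 27 of 32 textbook targets (84.4%), beside 20.5% of all genes tested. The order was taken from the AP-1 genes themselves, so their own share is no independent evidence of it. The lists were chosen with earlier results of these data known. Genes of these lists share libraries, and the counts were not tested.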

How the data were processed

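The 6 RNAseq libraries came from A673/TR/shEF cells, 3 EWSR1::FLI1high and 3 EWSR1::FLI1low, grouped by their treatment labels. RNA was depleted of ribosomal RNA, and the submitters' processing notes name STAR 2.5.0b, Cufflinks 2.2.1, DESeq2 1.6.3 and GRCh37. The authors deposited FPKM per gene symbol and library, already scaled between libraries, which were used as given. The authors' table of their own comparison holds a mean signal (mean normalized count), log2 fold changes, their standard errors, Wald statistics and p-values. Of that table only the mean signal was used. Multiplying FPKM by each gene's ratio of that signal to its mean FPKM gave reads divided by a size factor per library, and multiplying by that factor, read from the smallest steps, gave whole reads for 100% of values above 0 (within 0.1 reads).

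The test across genes used limma 3.58.1 in R 4.3.3 (lmFit, eBayes with trend) on log2(FPKM + 1), for genes averaging 0.5 FPKM or more. Group means of 1 gene were also compared by exact permutation. Python 3.11.15, pandas 2.3.3, scipy 1.17.1 and matplotlib 3.10.9 were used for the rest. The limma fit was first tested on simulated data, with independent noise of the same size in every library for a given gene. The simulation lacked the wider spread of the EWSR1::FLI1low libraries, so it does not show how the fit behaves under that spread. The members, gene lists and tests were chosen with earlier results of these data known. Genes named are the 10 AP-1 genes, FLI1, CD44, MMP1 and, from each list, up to 3 of the largest increases and decreases past an adjusted p of 0.01. Beyond this rule, other target genes that were called are named without values, EGR1 was chosen after its values were seen, and genes that overlap an AP-1 gene were taken by position. Naming the genes nearest in profile to the leading AP-1 gene required one past the threshold, so it was not applied. No pair of replicates agreed within sampling noise, so each library counted as 1 replicate. Floors in reads cover counting error only.

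Alternatives were a pseudocount of 0.1, no filter, a stricter filter at a mean of 1 FPKM, quantile normalization, median-ratio scaling, a replicate block, eBayes without trend, an adjusted p under 0.05 and leaving out each library. In the main fit and in fits that left out a library, both groups shared 1 estimate of the spread per gene. The EWSR1::FLI1low libraries varied more among themselves, and the p-values do not allow for this. After seeing the data, sample quality weights and limma-voom on recovered reads were added. Gene positions are those of GENCODE on GRCh37, and promoter windows those of RefSeq on GRCh38.p14. Protein sequences were not analysed here, and 1 gene of the target list is not reported by name.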

Additional observations from a re-analysis of the deposited data

How the results depend on the processing

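The number of AP-1 genes called higher was 0, and it was 1 at an adjusted p under 0.05, 1 with limma-voom on recovered reads, 6 with sample quality weights, and 0 to 2 when 1 library was left out. The number called lower was 0 under all 16 alternatives. FLI1 stayed past the threshold in 15 of 15 alternative fits. The sign of JUND turned to 0.06 after quantile normalization, and its log2 fold change lay between -0.18 and 0.00 when 1 library was left out (0.00 without EWSR1::FLI1low replicate 3). Over all genes, 700 were called higher and 522 lower. The number called higher was 456 with no filter, 1530 at an adjusted p under 0.05, 2488 with sample quality weights and 287 to 1452 when 1 library was left out. The number called lower was 297 with no filter, 813 with median-ratio scaling, 1000 with quantile normalization, 1537 at an adjusted p under 0.05, 784 with limma-voom, 2257 with sample quality weights and 156 to 726 when 1 library was left out. The share of calls that were higher was 57.3%, and it was 49.8% with quantile normalization and 37.7% without EWSR1::FLI1low replicate 3. With a mean FPKM of at least 1, the median log2 fold change of all genes was -0.115. The cause of these shifts was not tested.

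Replicate numbers were not taken to pair the samples, because not every same-numbered pair had a correlation of deviations over 0.1. Same-numbered samples had correlations of 0.271, 0.0889 and 0.124, all positive. Differently numbered samples ran from -0.289 to 0.189, the latter between EWSR1::FLI1high replicate 3 and EWSR1::FLI1low replicate 2. These values do not settle whether the numbers pair the samples. With the replicate number as a block, 1 AP-1 gene was called higher (FOSL2, limma adjusted p = 0.00468), beside 916 of the 15504 genes tested. In that fit 786 of all genes were called lower. At an adjusted p under 0.05, 4 AP-1 genes passed with the block (FOSL2, JUN, ATF3 and MAFF). All genes were not counted at that threshold, so this count has no share of all genes to be read against. FOSB, at 8 to 21 reads, and BATF3, at 22 to 45 reads, are limited most by depth.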
